A study of Mus musculus with 10 samples.

Results

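The genes described here are 9 markers of neural precursors and newly made neurons, chosen by name: Dcx, Sox4, Sox11, Cd24a, Igfbpl1, Eomes, Neurod1, Nes and Tubb3. They are 9 of the 30935 genes in the count table. The rule that names them uses no expression value, but they were chosen with earlier results of these data known. All 9 were found by Entrez identifier, and all 9 passed the filter on low counts that left 15488 tested genes. RNA was taken from mouse cerebral cortex on postnatal day 8. 5 libraries were from wild-type mice, Rbfox1 +/+ (replicates 2, 4, 5, 6 and 7). 5 were from mice with both copies of HAR.505 in the Rbfox1 locus deleted, Rbfox1 ΔHAR.505/ΔHAR.505 (replicates 1, 3, 5, 6 and 8), called knockout here. The design asks whether loss of this human accelerated region, a conserved element that changed unusually often in the human lineage, alters cortical expression. Strain, sex and litter are not given in the sources read here, and the deletion is of a noncoding element, so the gene counts do not check the genotype labels.

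New cortical neurons pass through a fixed sequence. Radial glia, which carry nestin (Nes), give rise to intermediate progenitors that express the T-box factor Eomes, and their daughters pass through a Neurod1 stage. The daughters then migrate while expressing doublecortin (Dcx), the neuronal beta-tubulin Tubb3 and the surface glycoprotein Cd24a under the SoxC factors Sox4 and Sox11, and these genes decline as the neuron matures. After birth, excitatory neurogenesis in the mouse cortex is over, while neurons are still made in the subventricular zone beside the lateral ventricle and in the dentate gyrus, and cortical neurons are still maturing.

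Library totals ran from 16479594 to 22391943 counts. All 13 genes checked as defining cortical neurons and glia were detected in every library, from Emx1 at 21.1 to 32.4 CPM to Slc17a7 at 805 to 1075 CPM. CPM is the usual depth-scaled count of a gene, its share of the library's total after TMM scaling. 2 knockout libraries stood apart for marker lists that touch the results below. Knockout replicate 3 held the lowest mean of the ependymal, choroid plexus and dentate gyrus lists. Knockout replicate 8 held the highest mean of the immature neuron and red cell lists among the knockout libraries.

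Sox4 and Sox11 encode closely related transcription factors, and the pairs of highest correlation over libraries among the members were Sox4 with Sox11 and Dcx with Sox11, so the promoters of these 3 genes are shown first. Each line holds, of the 250 bases before the gene's start, the stretch upstream of the RefSeq gene (GRCm38.p6) and of every GENCODE vM21 exon. It reads 5′ to 3′ on the gene's strand. Capitals mark CCAAT, read on either strand (ATTGG on the opposite one).
Sox4, chr13:28953714-28953949, minus strand: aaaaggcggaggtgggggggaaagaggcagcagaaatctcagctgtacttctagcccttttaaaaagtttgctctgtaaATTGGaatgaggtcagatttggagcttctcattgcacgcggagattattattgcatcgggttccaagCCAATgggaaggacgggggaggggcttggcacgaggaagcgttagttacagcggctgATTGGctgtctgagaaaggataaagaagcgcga
Sox11, chr12:27342719-27342968, minus strand: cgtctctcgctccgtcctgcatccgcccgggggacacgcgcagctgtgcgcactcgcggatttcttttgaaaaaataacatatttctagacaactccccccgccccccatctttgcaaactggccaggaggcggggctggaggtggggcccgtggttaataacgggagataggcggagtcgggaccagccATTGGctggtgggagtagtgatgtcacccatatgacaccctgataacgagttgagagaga
Dcx, chrX:143933397-143933469, minus strand: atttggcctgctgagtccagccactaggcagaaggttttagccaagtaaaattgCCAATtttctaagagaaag
The Sox4 stretch held 3 CCAAT matches on either strand, and the Sox11 and Dcx stretches held 1 each. Over the full 250 bases, 5 of the 7 members with a promoter entry (not Nes or Neurod1) had at least 1 match, against 33.8% of all 32851 promoter windows. CAGCTG, an E-box that reads the same on both strands, was present in Sox4 and Sox11 alone among the 7, against 13.0% of all windows. The general E-box CANNTG, of which CAGCTG is 1 form, was in 3 of the 7 (Sox4, Sox11 and Neurod1), against 66.2% of all windows. The SOX-type core AACAAT was in 0 of the 7 (9.42% of all windows), on either strand. These are letter matches and were not tested as binding sites.

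Levels differed widely between the 9 genes. On a per-length scale (CPM per kilobase of annotated exon, GENCODE vM21), wild-type cortex held 754 ± 39.0 of Tubb3 (SD, n = 5 here and throughout) and 111 ± 8.96 of Cd24a. Dcx followed at 44.8 ± 3.12, Sox4 at 35.6 ± 1.81 and Sox11 at 14.7 ± 0.762. The genes of earlier stages stood lower, with Neurod1 at 12.9 ± 1.75, Igfbpl1 at 4.20 ± 0.665, Nes at 3.70 ± 0.394 and Eomes at 0.264 ± 0.0814. Sox11 and Neurod1, and likewise Igfbpl1 and Nes, did not differ beyond their spread in this order. The abundant members were those of postmitotic neurons, and the intermediate progenitor factor Eomes rested on 6 to 30 counts per library. Reads of Tubb3 and Cd24a can be shared with other tubulin genes and with Cd24a-derived copies, and how such reads were treated is not given in the sources read here. Sox4 and Eomes each overlap a long noncoding RNA gene in RefSeq (Gm46405 and Gm33408), and without a known strand setting reads from the overlap cannot be assigned. In bulk cortex, fewer cells of a type and less RNA per cell cannot be told apart.

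Between genotypes, 0 of the 9 genes passed the edgeR quasi-likelihood test over all genes (adjusted p under 0.05), where 0.381% of all tested genes did (0.187% higher, 0.194% lower in the knockout). DESeq2 and limma-voom also called 0. 2 of the 9, Tubb3 and Sox4, had an unadjusted p under 0.05 by edgeR, both lower in the knockout, as did 2 by each other tool, where 8.71% of tested genes reached that level in either direction and 4.52% in the lower direction. The median log2 fold change of the 9 genes was -0.13, with 5 below 0 and 4 above, against a median of -0.002 over all tested genes. In no member did the genotypes separate completely, which they did in 1.83% of tested genes.

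**Figure D1:**
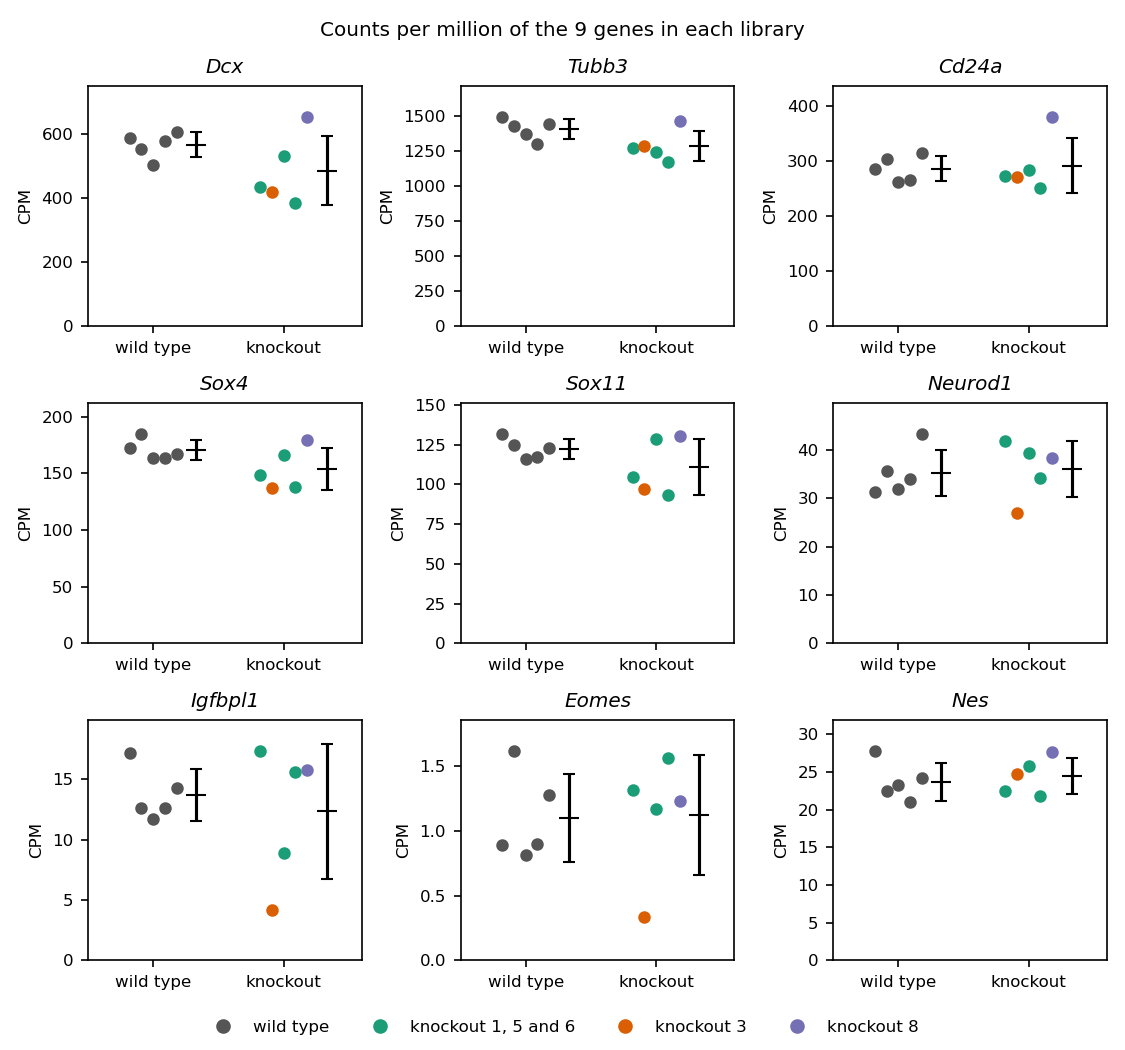
CPM (vertical axes, from 0) of the 9 genes in each of the 5 wild-type and 5 knockout libraries, 1 point per library, with the mean and SD (n = 5) beside the points. Knockout 8 lies above every wild-type library for Dcx and Cd24a, and knockout 3 lies below every other library for Igfbpl1, Eomes and Neurod1.

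Dcx encodes a microtubule-binding protein of migrating neurons. In replicate order its wild-type libraries held 589, 554, 506, 580 and 607 CPM and its knockout libraries 436, 421, 532, 386 and 653 CPM. 3 knockout libraries lay below every wild-type library, 1 lay within their range and replicate 8 lay above all of them. Replicate 8 was the highest of the 10 libraries for 2 of the 9 members, Dcx and Cd24a, as it was for 11% of all tested genes. Mean levels were 567 ± 39.4 and 486 ± 108 CPM. The log2 fold change of -0.22 (SE 0.144) did not pass (edgeR adjusted p = 0.752). The 95% interval of the fold ran from 0.682 to 1.08. Without knockout replicate 8 the log2 fold change was -0.35 (SE 0.0855, edgeR adjusted p = 0.0855), and over the fits leaving out any 1 library it ran from -0.35 to -0.15, the latter without knockout replicate 6.

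Sox4 and Sox11 shared 1 arrangement of libraries. Sox4 stood at 173, 184, 164, 164 and 167 CPM in wild type and at 148, 137, 166, 138 and 180 CPM in knockout. Sox11 stood at 131.5, 125, 116, 117 and 123 CPM in wild type and at 104, 97.1, 129, 93.2 and 130.6 CPM in knockout. For both, knockout replicates 1, 3 and 6 lay below every wild-type library, and replicates 5 and 8 lay within the wild-type range. The log2 fold change was -0.15 for Sox4 (SE 0.0643, fold interval 0.823 to 0.99, unadjusted p = 0.032, edgeR adjusted p = 0.496). For Sox11 it was -0.15 (SE 0.087, fold interval 0.795 to 1.03, edgeR adjusted p = 0.705). Without knockout replicate 8 these became -0.21 (SE 0.0549, edgeR adjusted p = 0.0524) and -0.21 (SE 0.0719, edgeR adjusted p = 0.199). Without knockout replicate 3 they were -0.11 (SE 0.0634) and -0.10 (SE 0.0838), and without replicate 6 they were -0.11 (SE 0.0641) and -0.09 (SE 0.0755). In both of those fits Sox4 had an unadjusted p above 0.05 by edgeR (0.106 and 0.0967).

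Tubb3, the neuron-specific beta-tubulin gene, had the smallest p of the 9. Its wild-type libraries held 1493, 1428, 1377, 1301 and 1443 CPM and its knockout libraries 1274, 1288, 1246, 1175 and 1468 CPM. 4 of the 5 knockout libraries lay below the lowest wild-type library, an arrangement or a more complete one that 4.35% of tested genes had in this direction, and replicate 8 lay between the 2 highest wild-type libraries. The log2 fold change was -0.13 (SE 0.0498), with a fold interval of 0.853 to 0.983 (unadjusted p = 0.0172, edgeR adjusted p = 0.416). Without knockout replicate 8, Tubb3 fell by 0.17 on the log2 scale (SE 0.0416, edgeR adjusted p = 0.027) and was the only member called in that fit, where 1.16% of tested genes were called in either direction and 0.544% lower. Without knockout replicate 6 the log2 fold change was -0.09 (SE 0.0495, unadjusted p = 0.0665 by edgeR).

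Cd24a encodes a surface glycoprotein of new neurons that ependymal cells and blood cells also carry. It stood at 285, 304, 262, 265 and 315 CPM in wild type and at 273, 271, 284, 251 and 379 CPM in knockout. The other 4 knockout libraries spread over 251 to 284 CPM, so replicate 8 alone lay above the wild-type range, and replicate 6 lay just below it. The log2 fold change was 0.03 (SE 0.109, fold interval 0.861 to 1.21, edgeR adjusted p = 0.981), and without replicate 8 it was -0.08 (SE 0.0523). Among the knockout libraries the red cell list was also highest in that one, at a mean log2 CPM of 6.31 against 5.45 to 5.54 in the other knockout libraries and 5.89 to 6.32 in wild type. 5 of the 7 red cell genes had counts past the filter. Their part in the Cd24a value was not tested.

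Igfbpl1, Eomes and Neurod1, genes of progenitors and of neurons at the start of differentiation, shared another library. Igfbpl1, which encodes a secreted protein related to insulin-like growth factor binding proteins, stood at 17.2, 12.6, 11.7, 12.6 and 14.3 CPM in wild type. In knockout it stood at 17.3, 4.20, 8.87, 15.6 and 15.8 CPM, with replicates 3 and 5 below every wild-type library and replicate 1 just above them. The log2 fold change was -0.15 (SE 0.343, fold interval 0.525 to 1.56, edgeR adjusted p = 0.958), and it was 0.08 (SE 0.157) without replicate 3. The scatter of Igfbpl1 within a genotype, an SD of 0.62 on the log2 scale, was larger than that of 99.9% of the 2015 genes of like level, those within 0.5 log2 units of its mean. Without knockout replicate 3 that SD was 0.33, larger than that of 97.6% of genes of like level.

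Eomes stood at 0.892, 1.61, 0.811, 0.899 and 1.27 CPM in wild type and at 1.32, 0.331, 1.16, 1.56 and 1.23 CPM in knockout. Neurod1, which encodes a basic helix-loop-helix factor of new excitatory neurons and of dentate granule cells, stood at 31.3, 35.7, 32.0, 34.0 and 43.3 CPM in wild type and at 41.8, 26.9, 39.4, 34.2 and 38.3 CPM in knockout. For both, knockout replicate 3 was the lowest of the 10 libraries and the other 4 lay within the wild-type range. The log2 fold changes were 0.03 for Eomes (SE 0.384, fold interval 0.592 to 1.76) and 0.03 for Neurod1 (SE 0.107, fold interval 0.876 to 1.2), with edgeR adjusted p of 0.995 and 0.973. Without replicate 3 they were 0.27 (SE 0.363) and 0.12 (SE 0.0881), and neither passed.

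Nes, the intermediate filament gene of neural stem cells that growing vessels also express, stood at 27.7, 22.4, 23.2, 21.0 and 24.2 CPM in wild type and at 22.5, 24.7, 25.8, 21.8 and 27.7 CPM in knockout, all within the wild-type range. The log2 fold change was 0.05 (SE 0.0913, fold interval 0.907 to 1.18, edgeR adjusted p = 0.951). Its scatter within a genotype was larger than that of 56.3% of genes of like level. The same percentages were 64.6 for Eomes, 81 for Tubb3 and 90.3, 95.7, 97.1, 97.9 and 99 for Sox4, Sox11, Neurod1, Cd24a and Dcx. For Dcx and Cd24a the SD fell from 0.23 and 0.18 to 0.15 and 0.10 without knockout replicate 8 (97.4% and 87.2% of genes of like level). For Eomes it fell from 0.61 to 0.31 without replicate 3 (7.51%).

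**Figure D2:**
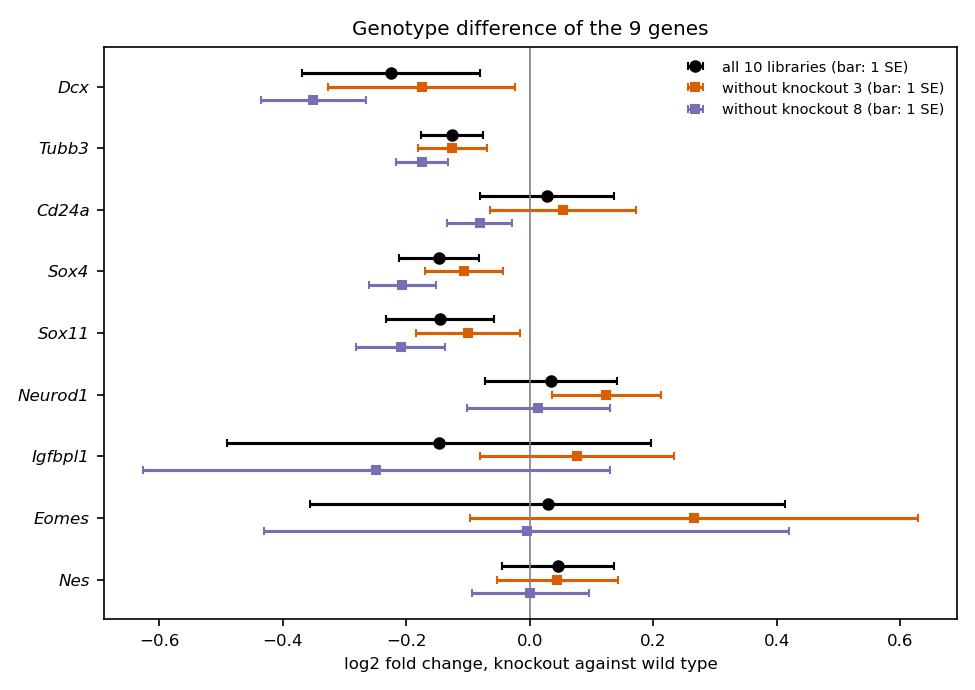
Log2 fold change, knockout against wild type (horizontal axis), of each gene with a bar of 1 SE, from all 10 libraries and from fits without knockout replicate 3 or 8. Leaving out replicate 8 moves Dcx from -0.22 to -0.35 and Cd24a across 0, and leaving out replicate 3 moves Igfbpl1 across 0.

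Several members covaried over libraries. Correlations were computed on log2 CPM after the mean of each genotype was subtracted, so that a genotype difference could not produce them, and tested by exact permutation of the libraries within genotype, adjusted over 36 pairs. 33 of the 36 coefficients were above 0, with a median of 0.51, and 7 pairs passed, all positive. The pairs were Dcx with Sox11 (r = 0.91), Dcx with Cd24a (0.87), Sox4 with Sox11 (0.93), Sox4 with Cd24a (0.81), Sox11 with Cd24a (0.74), Cd24a with Tubb3 (0.87) and Nes with Tubb3 (0.81). The adjusted exact permutation p was 0.0354 for 6 of them and 0.0429 for Cd24a with Tubb3. All points of a pair share the libraries and their scaling, so the 36 relations are not independent. The share of passing pairs over all genes was not computed. As a description, among 13620 named genes with a mean of at least 1 CPM, 1.93% had a centred r above 0.8 with Dcx and 0.58% with Eomes.

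Sox4 and Sox11, whose promoters are printed above, had the highest coefficient. With the values as they were, Pearson's r was 0.94 (permutation p = 0.00039, adjusted 0.00702) and Spearman's rho 0.87 (permutation p = 0.00246, adjusted 0.0538), and r was 0.83 without knockout replicates 3 and 6, the libraries farthest from the Sox4 median. For Dcx and Sox11 the same values were r = 0.93 (permutation p = 0.00038, adjusted 0.00702), rho = 0.83 (permutation p = 0.00455, adjusted 0.0538) and 0.81 without those libraries. No pair passed by Spearman's rho after adjustment. The coefficients of Sox4 with Sox11 and of Dcx with Sox11 stayed at 0.87 or above with any 1 library left out. Those of Cd24a fell to between 0.56 and 0.67 without knockout replicate 8. The centred coefficient of Nes with Tubb3 stayed at 0.75 or above with any 1 library left out. With the values as they were, Nes with Tubb3 had r = 0.54 (permutation p = 0.109, adjusted 0.245) and rho = 0.49 (permutation p = 0.155, adjusted 0.372). That r was 0.10 without wild-type replicate 2 and knockout replicate 8. Dcx with Sox4 had a centred r of 0.86 (exact permutation p = 0.0178, adjusted 0.0717) and did not pass, while its r with the values as they were was 0.90 (permutation p = 0.0011, adjusted 0.0132). No pair passed the adjusted test without wild-type replicate 5 or without any 1 of the 5 knockout libraries.

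Among Igfbpl1, Eomes and Neurod1 no pair passed. Their centred coefficients were 0.80 for Igfbpl1 with Eomes (exact permutation p = 0.0603, adjusted 0.154), 0.77 for Eomes with Neurod1 (exact permutation p = 0.0485, adjusted 0.154) and 0.62 for Igfbpl1 with Neurod1 (exact permutation p = 0.106, adjusted 0.225). With the values as they were, Igfbpl1 with Eomes had r = 0.79 (permutation p = 0.0337, adjusted 0.118) and rho = 0.49 (permutation p = 0.154, adjusted 0.372). That r was 0.25 without knockout replicates 3 and 5. Eomes with Neurod1 had r = 0.76 (permutation p = 0.00951, adjusted 0.0571) and rho = 0.67 (permutation p = 0.0383, adjusted 0.125). That r was 0.35 without knockout replicate 3 and wild-type replicate 5. The centred coefficients of these 3 genes were 0.19 to 0.43 with Dcx and 0.33 to 0.46 with Sox4, and no test compared them with those among the 3.

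**Figure D3:**
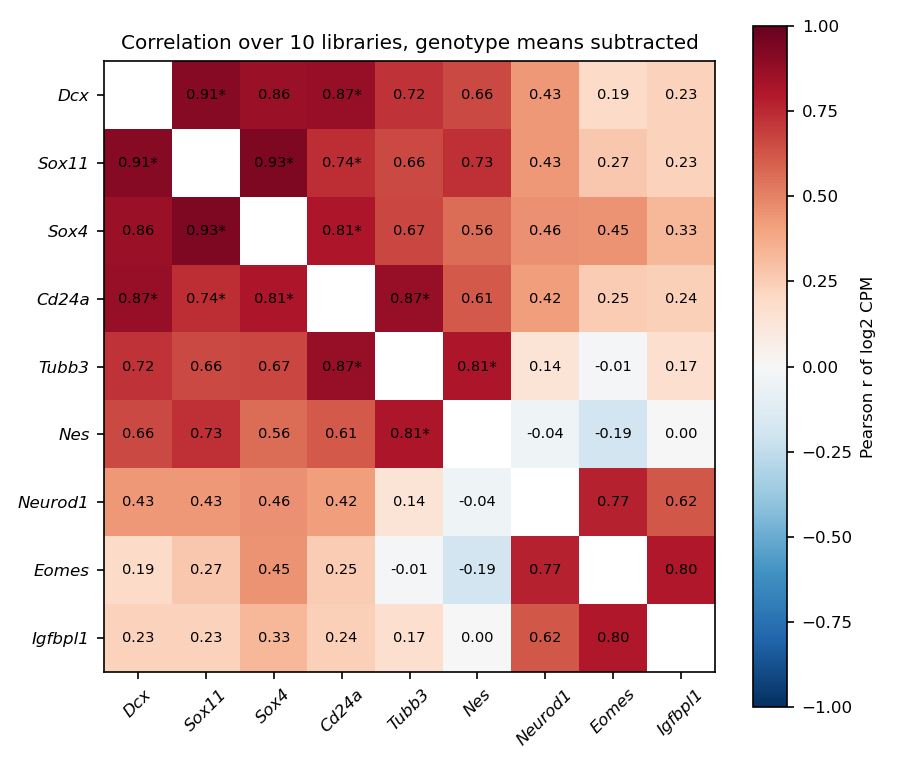
Pearson r of log2 CPM over 10 libraries after genotype means were subtracted, for each pair of the 9 genes (both axes), with a star where the exact permutation p adjusted over 36 pairs was under 0.05. Dcx, Sox11, Sox4, Cd24a, Tubb3 and Nes have r of 0.56 to 0.93 with each other, 7 of those pairs starred, and Igfbpl1, Eomes and Neurod1 have r of 0.62 to 0.80 with no star.

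The genes most like Dcx across the 10 libraries, among 13620 named genes with a mean of at least 1 CPM, were Tmc4, Mapt, Ttc28, Rnf152 and Cracd, with a centred r of 0.96 to 0.95. Mapt encodes the microtubule-associated protein tau. Those most like Eomes were Tdrp, Fam216b, Acat3, Pdcd6 and Maob, with r of 0.95 to 0.93. As a description, the median r of all compared genes was -0.01 with either member. The choice of the highest values among so many genes makes high coefficients likely.

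Other genes of young neurons, a list of 23 with Gap43, Crmp1, the stathmins and the polysialyltransferases, were more often lower than higher in the knockout. 16 of the 23 had a log2 fold change below 0, the median was -0.04, 0 passed the edgeR test (0 by DESeq2 and by limma-voom) and 6 had an unadjusted p under 0.05, all lower. Over all tested genes, 50.9% had a log2 fold change below 0, and 4.52% were lower with an unadjusted p under 0.05 by edgeR. Gap43, a growth cone protein gene, stood at 894 to 974 CPM in wild type and 817 to 926 CPM in knockout (log2 fold change -0.13, SE 0.0428, edgeR adjusted p = 0.256). Crmp1, a semaphorin signalling gene, stood at 1272 ± 48.0 and 1130 ± 129.6 CPM (log2 fold change -0.17, SE 0.0583, edgeR adjusted p = 0.33), with knockout replicate 8 at 1343 CPM and the other 4 between 1024 and 1158. Without replicate 8, 4 of the 23 fell past the edgeR threshold: Crmp1, Tubb2b, Stmn1 and Draxin, named after their values were seen, with log2 fold changes of -0.24, -0.21, -0.23 and -0.53. In that fit 1.16% of all tested genes were called in either direction and 0.544% lower. Crmp1 passed in 1 of the 10 fits leaving out 1 library, which was this one, and Gap43 passed in 0. Without knockout replicate 3 or 6 the log2 fold change of Crmp1 was -0.143 and -0.137 (edgeR adjusted p = 0.613 and 0.5).

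Genes of mature neurons were more often higher. Of 18, 13 had a log2 fold change above 0 with a median of 0.07, 0 passed by edgeR, DESeq2 or limma-voom and 3 had an unadjusted p under 0.05, all higher. At that level 649 of all 15488 tested genes were higher by edgeR. Snap25, a synaptic vesicle fusion gene, stood at 616 to 683 CPM in wild type and 676 to 771 CPM in knockout (log2 fold change 0.15, SE 0.0456, edgeR adjusted p = 0.229), and the neurofilament gene Nefl had a log2 fold change of 0.17 (SE 0.055, edgeR adjusted p = 0.259). The knockout library with the lowest Snap25 was replicate 8. Without it, Snap25 and Nefl rose past the edgeR threshold (log2 fold changes 0.18 and 0.21, adjusted p = 0.0318 and 0.0353), in a fit that called 97 of 15633 tested genes higher. Each passed in 1 of the 10 fits leaving out 1 library, which was this one, and it is shown after the values were seen. The mean of the mature list had centred coefficients of -0.59 to -0.71 with Dcx, Sox4, Sox11, Cd24a, Nes and Tubb3, and of 0.14, 0.03 and 0.16 with Igfbpl1, Eomes and Neurod1. None passed after adjustment over 54 pairs of a member and a list, where the smallest adjusted exact permutation p was 0.531 and 3 pairs had an unadjusted p under 0.05. Those were Eomes with the endothelial and mural list (r = -0.82, exact permutation p = 0.0129), Dcx with the subventricular neuroblast list (r = -0.52, exact permutation p = 0.0235) and Nes with the mature list (r = -0.71, exact permutation p = 0.0346). With the values as they were, r was -0.82, 0.11 and -0.53 (permutation p = 0.00583, 0.758 and 0.116, adjusted 0.203, 0.939 and 0.369). Those r were -0.42, -0.09 and -0.18 without the 2 libraries farthest from the member's median.

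**Figure D4:**
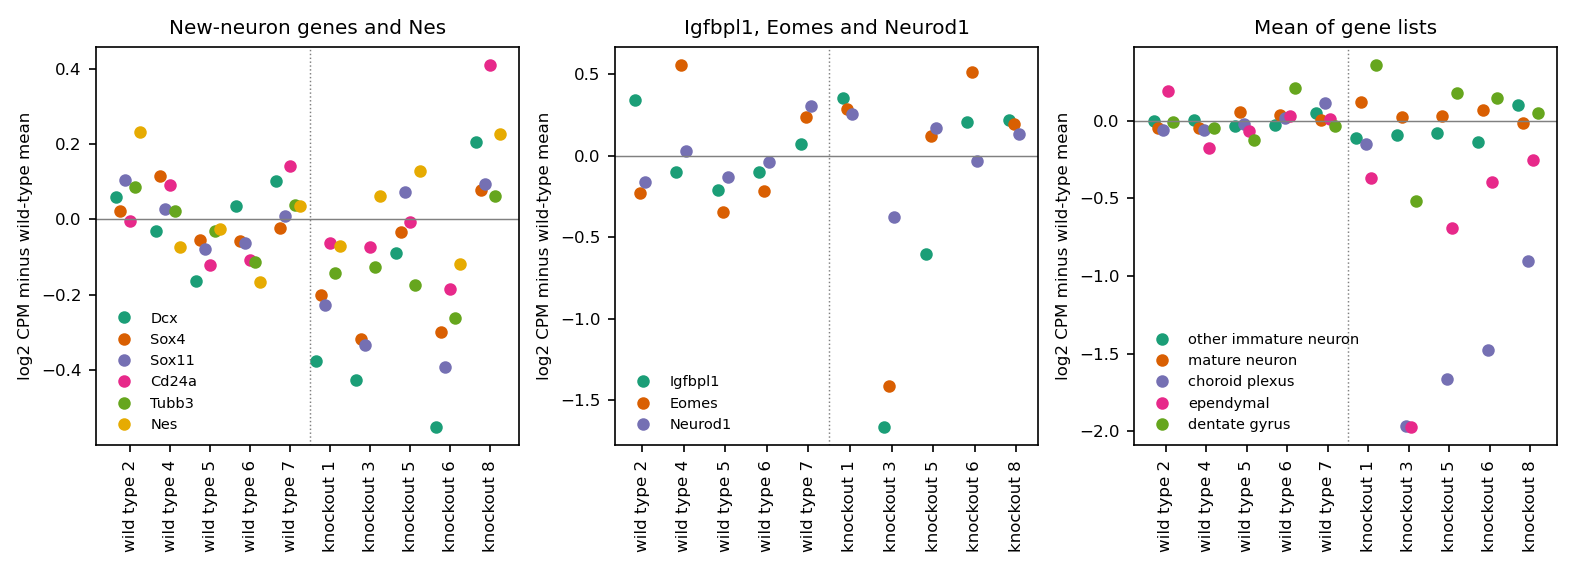
Log2 CPM minus the wild-type mean (vertical axes) in each of the 10 libraries, for Dcx, Sox4, Sox11, Cd24a, Tubb3 and Nes (left), for Igfbpl1, Eomes and Neurod1 (middle) and for the means of 5 gene lists (right). Knockout 8 is highest for Dcx (0.21) and Cd24a (0.41), and knockout 3 is lowest for Igfbpl1 (-1.66), Eomes (-1.41) and the choroid plexus and ependymal lists.

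The subventricular neuroblast genes are the Dlx, Sp and related factors of the zone beside the lateral ventricle. Cortical interneurons and striatal neurons partly share them. Of 14 tested, 12 had a log2 fold change below 0 (median -0.14), against 50.9% of all tested genes. 4 had an unadjusted p under 0.05 by edgeR, all lower, where 4.52% of all tested genes did in that direction. 1 passed the edgeR test after adjustment. It was Sp9, a zinc-finger factor of neuroblasts and of striatal projection neurons. Sp9 stood at 16.4, 19.5, 13.0, 13.1 and 14.0 CPM in wild type and at 11.6, 9.61, 9.98, 10.6 and 10.3 CPM in knockout. The genotypes did not overlap, and the log2 fold change was -0.54 (SE 0.122, edgeR adjusted p = 0.0386). With 1 library left out it still passed in 3 of 10 fits, those without wild-type replicate 6 or knockout replicate 1 or 8. It passed with DESeq2, and did not pass with limma-voom or with the Xist level as a sex covariate. Meis2, the next gene of the list, had a log2 fold change of -0.19 (SE 0.0598, edgeR adjusted p = 0.256). The striatal genes Six3 and Penk also fell, and 12 of the 17 striatal genes had an unadjusted p under 0.05 and were lower. The other 2 at that level, Pdyn and Gpr6, were higher (log2 fold changes 0.31 and 0.34). With the mean of the striatal list as a covariate the log2 fold change of Sp9 was -0.58 and did not pass. That fit called 0 of all 15488 tested genes, so not passing in it decides nothing about Sp9.

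Progenitor genes are set beside all tested genes, of which 8.71% had an unadjusted p under 0.05 by edgeR, 4.52% in the lower direction. Of 13 tested genes of intermediate progenitors and excitatory neurogenesis, 0 passed by edgeR, DESeq2 or limma-voom. 3 had an unadjusted p under 0.05 by edgeR, 2 lower and 1 higher, and the median was 0.015. Tbr1, a T-box factor of early-born neurons, had a log2 fold change of -0.18 (SE 0.0518, edgeR adjusted p = 0.165). Neurod6, a factor of cortical excitatory neurons, had one of 0.15 (SE 0.0555, edgeR adjusted p = 0.345). Neurog1, Neurod4 and Ppp1r17 did not pass the filter and had 0 counts in knockout replicate 3. Of 21 genes of neural stem cells and radial glia, 0 passed by edgeR or limma-voom. 2 passed by DESeq2 (Sox1 and Tnc, both lower), which called 0.801% of all tested genes. 5 had an unadjusted p under 0.05 by edgeR, 4 lower and 1 higher. 14 had a log2 fold change below 0 (median -0.04), as did 50.9% of all tested genes. Sox1, a stem cell factor that striatal neurons also use, lay closest to the threshold, with every knockout library (17.5 to 19.6 CPM) below every wild-type one (20.7 to 27.9 CPM), a log2 fold change of -0.40 (SE 0.0932) and an edgeR adjusted p of 0.0505. The matrix gene Tnc had a log2 fold change of -0.23 (SE 0.0576, edgeR adjusted p = 0.0854). Of 18 cell cycle genes, 0 passed by edgeR, DESeq2 or limma-voom, and 0 had an unadjusted p under 0.05 by edgeR (median -0.08). The mitotic genes Cenpf and Aurkb had log2 fold changes of -0.25 (SE 0.139) and -0.42 (SE 0.235). Without knockout replicate 3, in which Aurkb was lowest, they were -0.14 (SE 0.13) and -0.28 (SE 0.228).

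Markers of ependyma, choroid plexus and dentate gyrus were low in knockout replicate 3, the library with the lowest Igfbpl1, Eomes and Neurod1. The subventricular neuroblast list had a mean log2 CPM of 3.27 there, the highest of the knockout libraries. It ran from 3.19 to 3.26 in the other knockout libraries and from 3.28 to 3.49 in wild type. In that library the ependymal list had a mean log2 CPM of -0.61, against 0.67 to 1.11 in the other knockout libraries and 1.19 to 1.55 in wild type. The summed ependymal CPM ran from 34.0 to 39.9 in wild type and from 15.6 to 29.8 in knockout, and 4 of the 12 genes (Tmem212, Dynlrb2, Mia and Ak7) had 0 counts in replicate 3. The choroid plexus list had a mean of 0.55 there, against 0.85 to 2.36 in the other knockout libraries and 2.45 to 2.63 in wild type. Its sum ran from 366 to 460 CPM in wild type and from 131 to 381 CPM in knockout, with Ttr and Otx2 at 0 counts in replicate 3. The dentate gyrus list, with the granule cell factor Prox1, had a mean of 2.31 in that library, against 2.88 to 3.19 in the other knockout libraries and 2.71 to 3.05 in wild type. Its sum ran from 162 to 225 CPM in wild type and from 91.2 to 226 CPM in knockout, with none of the 8 genes at 0 counts. The choroid plexus list was also low in replicates 5 (0.85) and 6 (1.04), where Eomes and Neurod1 lay within the wild-type range, and Igfbpl1 lay below it in replicate 5 and within it in replicate 6.

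The centred r of Igfbpl1, Eomes and Neurod1 with the choroid plexus list was 0.74, 0.50 and 0.64 (exact permutation p = 0.0838, 0.286 and 0.0899, adjusted 0.531, 0.785 and 0.531). With the values as they were, r was 0.63, 0.34 and 0.32 (permutation p = 0.0327, 0.353 and 0.361, adjusted 0.203, 0.649 and 0.649), and rho was 0.18, 0.12 and 0.20 (permutation p = 0.631, 0.758 and 0.579, each adjusted to 0.894). Those r were -0.37, -0.28 and -0.36 without knockout replicate 3 and 1 other library, so they rest on those libraries. Against the subventricular neuroblast list, the centred r of the same 3 genes was -0.15, 0.02 and -0.41 (exact permutation p = 0.562, 0.955 and 0.22, adjusted 0.913, 0.973 and 0.785). With the choroid plexus list as a covariate the log2 fold change of Igfbpl1 was 0.75, the log2 fold change of Eomes 0.59 and the log2 fold change of Neurod1 0.36. None passed the edgeR test after adjustment, but that fit called 0 of all 15488 tested genes, so this decides nothing about the 3 genes. Neurod1 had an unadjusted p of 0.0233 by edgeR in it, where 749 of all tested genes had one under 0.05.

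Between genotypes, 0 of the 8 dentate gyrus genes passed or had an unadjusted p under 0.05 by edgeR, DESeq2 or limma-voom (median 0.07). Glis3 and Tdo2 had the smallest p, with log2 fold changes of -0.28 (SE 0.179) and 0.49 (SE 0.357). Of 10 tested ependymal genes, 9 had a log2 fold change below 0 (median -0.70), against 50.9% of all tested genes. 4 had an unadjusted p under 0.05 by edgeR, all lower, where 4.52% of all tested genes did in that direction and 0.194% passed. 1 ependymal gene passed, the cilium gene Cfap44, which fell by 0.81 on the log2 scale (SE 0.184, edgeR adjusted p = 0.041, passing in 3 of 10 fits with 1 library left out). Foxj1, the master factor of motile cilia, had a log2 fold change of -0.64 (SE 0.188, edgeR adjusted p = 0.184). Without knockout replicate 3 the log2 fold changes of Cfap44 and Foxj1 were -0.687 (SE 0.181) and -0.475 (SE 0.162), with edgeR adjusted p of 0.164 and 0.424. Of 8 oligodendrocyte precursor genes, which matter here because these cells also express SoxC factors, 0 passed or had an unadjusted p under 0.05 by edgeR, DESeq2 or limma-voom and the median was 0.06. Gpr17 (0.10, SE 0.06) and Enpp6 (0.20, SE 0.144) had the smallest p by edgeR. Of 12 endothelial and mural genes, the other sources of Nes, 0 passed by any of the 3 tools, 1 had an unadjusted p under 0.05 and the median was 0.01, with log2 fold changes of 0.14 (SE 0.0597) for Rgs5 and 0.07 (SE 0.0617) for Cldn5.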

How the data were processed

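The authors deposited raw read counts for each Entrez gene in 1 table. The submitters' processing notes name HISAT2, featureCounts and the mm39 build. Versions, annotation and strand setting: not given in the sources used here. Symbols came from RefSeq GRCm38.p6 (30648 identifiers matched, 287 did not). Those builds differ, so GRCm38 supplied names, promoter sequences and exon lengths only.

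The tests used edgeR 4.0.16 (R 4.3.3): filterByExpr, TMM factors, a robust quasi-likelihood fit on genotype alone, and two-sided p-values adjusted by the Benjamini-Hochberg method over 15488 genes (threshold 0.05). Log2 CPM used a prior count of 2. Standard errors come from the F statistic. Correlations were tested over all 14400 arrangements of libraries within genotype, or with 100000 resamples for uncentred values, two-sided. Both procedures were tested on simulated data. Libraries of 1 genotype differed by more than sampling noise (chi-square per degree of freedom 4.10 to 13.9), so each was 1 replicate, and the design text calls them independent. The alternatives included limma 3.58.1 (voom) and DESeq2 1.42.0.

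The members and the 14 other lists (205 entries, all matched) were chosen with earlier results of these data known. Named genes are the members, the 2 genes of smallest p and any called gene of each list, and the 5 genes most like Dcx and Eomes, with predicted genes passed over. The lists of red cell, striatal, choroid plexus and cortex-defining genes are described only where they touch a member.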

Additional observations from a re-analysis of the deposited data

Results flagged for a closer look

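In 98 groups of 5 libraries (the members, the list means and the named list genes in each genotype), 9 held a library far from the other 4, and chance gives about 1 in 20. Knockout replicate 8 was highest for Cd24a (379 CPM, next 284), for the mean of the other immature neuron genes (log2 CPM 9.15, next 8.97), for the red cell mean (6.31, next 5.54) and for Hbb-bt (76.9 CPM, next 47.9). Knockout replicate 3 was lowest for the ependymal mean (-0.61, next 0.67) and for the mitotic kinase gene Aurkb (1.44 CPM, next 2.45). Knockout replicate 6 was highest for the neural stem and radial glia mean (5.02, next 4.88). Among wild-type libraries, replicate 6 was lowest for Gap43 (894 CPM, next 960) and replicate 4 highest for the heme synthesis gene Alas2 (6.17 CPM, next 4.86).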

How the results depend on the processing

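With 5 libraries a genotype, fold intervals as wide as 0.525 to 1.56 (Igfbpl1) and 0.592 to 1.76 (Eomes, 203 counts in all) set the size of a difference that could be detected. The number of members called was 0 in 20 of 21 alternatives and 1 (Tubb3) without knockout replicate 8, a range of 0 to 1 over the fits leaving out 1 library. Of 188 refitted member fold changes, 171 kept their direction and side of the threshold. Those of Dcx, Sox4, Sox11 and Tubb3 stayed below 0 throughout, at -0.06, -0.05, -0.06 and -0.04 without knockout replicates 3, 5 and 6. With the striatal list as a covariate the log2 fold change of Dcx was -0.07, the log2 fold change of Sox4 -0.02, the log2 fold change of Sox11 -0.03 and the log2 fold change of Tubb3 -0.04. The sign of small changes turned as follows, and the cause was not tested. Igfbpl1 was 0.747 with the choroid plexus list as a covariate, 0.189 with the striatal list and 0.277 without knockout replicates 3, 5 and 6. Eomes was -0.086 by limma-voom and -0.058, and Neurod1 -0.004, with the striatal list. With the choroid plexus list Cenpf was 0.009, Glis3 0.059 and Cldn5 -0.001. Leaving out 1 library gave ranges of -0.081 to 0.078 (Cd24a), -0.296 to 0.077 (Igfbpl1), -0.122 to 0.266 (Eomes) and -0.023 to 0.124 (Neurod1). Eomes was not tested under the filter of 50 counts in 5 libraries. Over all genes 59 were called, against 171 with no filter, 124 by DESeq2, 27 with the Xist covariate, 12 without knockout replicates 3, 5 and 6, and 0 with the choroid plexus or striatal list as a covariate (749 and 632 at an unadjusted p under 0.05 by edgeR). With 1 library left out, 15 (wild-type replicate 2) to 182 (knockout replicate 8) were called. Against the 7 pairs that passed, 3 passed when genotype means were kept in (Dcx with Sox4, which is not among the 7, and Dcx and Sox4 each with Sox11), 0 without knockout replicates 3 and 8 together, which was chosen after seeing the data, and 0 to 6 with 1 library left out. The values for the gene lists without knockout replicate 8 and for the scatter of members without replicate 3 or 8 were also chosen after seeing the data.

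Wild-type and knockout libraries share only the numbers 5 and 6, and deviations of same-numbered libraries did not correlate (-0.03 and -0.06), so the numbers were not taken as pairs. With replicate number as a block, only the libraries numbered 5 and 6 inform the genotype contrast. That fit called 27 genes and 0 members, and Dcx had a log2 fold change of -0.26.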
